A study of Mus musculus with 8 samples.

Results

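The complement genes C3, C2, C4b, Cfb and C1ra and the regulators Serping1 and Cd55 were followed in ear epidermal sheets of mice with and without an inducible keratinocyte Cre. They were taken by symbol from all 8 count files, after the lane columns of each library had been summed and Ensembl identifiers had been paired with mouse symbols. The C1q subunits were left out of this group by choice and appear below only as part of the wider pathway. All 7 were found among the 51912 gene identifiers of the files, and 6 of the 7 had enough counts to be tested. Cfb did not.

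The 8 libraries came from 8 mice of 8 weeks of age, 4 labelled A20KIKO and 4 labelled A20WT. Mice of both labels were A20F/F, carrying conditional alleles of Tnfaip3, the gene of the ubiquitin-editing enzyme A20 that holds back NF-kB signalling and protects cells from dying. The A20KIKO mice were Krt5-CreERT2+, meaning that Krt5 regulatory sequence, active in basal keratinocytes, drove a Cre recombinase that tamoxifen switches on, and the A20WT mice were Krt5-CreERT2-. Both groups were given tamoxifen intraperitoneally, 1 mg on each of 2 consecutive days, and were killed 7 days after the first injection. The presence of the Cre is therefore part of every difference given here, and cells of lineages without Krt5 promoter activity kept their alleles by this design. The comparison asks how these complement transcripts differ 7 days after the start of an induced deletion of A20 in keratinocytes.

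Complement is a cascade of secreted proteins that tags and lyses targets. In the classical pathway C1q carries the proteases C1r and C1s, which cut C4 and C2 to form a convertase that cuts C3. In the alternative pathway factor B, the product of Cfb, takes the place of C2 on deposited C3b, and membrane proteins such as Cd55 take the convertases apart to protect the host's own cells. Most circulating complement comes from the liver, but keratinocytes, fibroblasts and macrophages also transcribe several components, and inflammatory cytokines raise some of them in cultured human cells.

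Total counts per library ran from 40451075 to 89624373. Tnfaip3 itself had CPM values (normalised counts, scaled by library total and TMM factor) of 74.0 ± 17.3 under the label A20KIKO and 16.5 ± 2.65 under the label A20WT (SD, n = 4 each). Its log2 change was 2.16 (edgeR adjusted p = 8.36e-05). That is opposite to the label, but the count covers the whole gene, with no separate count of the deleted part, so it does not check the deletion. Directions below are those of the labels, which this count does not check. Of 12 keratinocyte markers 0 rose and 1, Krt5, fell. They summed to 103013 to 121159 CPM in the libraries labelled A20KIKO and 95549 to 120860 CPM in the others, with Krt2, a keratin of the upper epidermis, the highest, so the labelled tissue was matched by its markers. A20KIKO mouse 4 stood apart: its neutrophil markers summed to 178 CPM, where the other 7 libraries had 33.4 to 44.9 CPM, with Mmp9, a matrix protease, the highest of them. Its mast cell markers summed to 26.7 CPM against 0.854 to 2.91 CPM in the other 7. Nearly all of that was Hdc, the histamine-forming enzyme, so this sum does not speak for the other mast cell markers. Values without A20KIKO mouse 4 are given for the 6 tested members and the called complement genes.

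The promoters of C3, which rose, and of Cd55, which did not pass the test, are shown because the RefSeq table (GRCm38.p6) gives a start for them that coincides with the annotated gene. Each run is the 250 bases before the start, 5′ to 3′ on the gene's strand, with matches to the motifs searched in capitals. C3 lies at chr17:57228137-57228386 and Cd55 at chr1:130462745-130462994, both on the minus strand.
C3: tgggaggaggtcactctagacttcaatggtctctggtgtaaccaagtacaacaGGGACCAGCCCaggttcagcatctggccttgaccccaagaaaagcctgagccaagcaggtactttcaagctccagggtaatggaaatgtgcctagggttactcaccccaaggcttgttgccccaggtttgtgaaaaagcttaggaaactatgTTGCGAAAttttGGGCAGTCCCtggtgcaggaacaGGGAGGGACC
Cd55: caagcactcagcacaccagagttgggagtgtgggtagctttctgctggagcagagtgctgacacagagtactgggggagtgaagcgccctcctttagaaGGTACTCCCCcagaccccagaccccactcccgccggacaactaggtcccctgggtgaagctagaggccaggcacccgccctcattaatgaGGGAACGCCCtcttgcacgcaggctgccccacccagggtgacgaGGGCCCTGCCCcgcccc
Searched on both strands were an interferon-stimulated response element core (GAAA, any 2 bases, GAAA), a gamma-activated site TTCNNNGAA, an NF-kB half-site pair (GGG, any 5 bases, CC) and a C/EBP core TTGCNNAA. The C3 window held the C/EBP core from -45 to -38 and the NF-kB pattern in 3 places, the nearest from -10 to -1. At the farthest of them the patterns of both strands overlapped. The Cd55 window held the NF-kB pattern in 3 places and no C/EBP core, and neither window held the other 2 motifs. Of 32851 RefSeq promoters of the same length, 45.8% held the NF-kB pattern, 9.56% the C/EBP core, 7.02% the gamma-activated site and 2.98% the response element core. The NF-kB pattern is thus common in such windows, and these matches describe letters, not binding. For C1ra the RefSeq start lies inside the annotated gene and its window is not shown. It held none of the 4 motifs. C2, C4b, Cfb and Serping1 were not matched in that table.

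C3 and C1ra rose in the libraries labelled A20KIKO, and the other tested members, C2, C4b, Serping1 and Cd55, did not pass the test. In the quasi-likelihood test of edgeR, adjusted by Benjamini-Hochberg over all 16512 tested genes, 2 of the 6 tested members rose and 0 fell, where 2.43% of all tested genes rose and 3.49% changed in either direction. The median log2 change of the 6 was 0.73, beside -0.01 over all tested genes. The 6 tested members lay above the cutoff of the low-count filter in all 8 libraries, so none entered through 1 group alone. In 3 of the 6, C3, C1ra and C2, the groups did not overlap, and all 3 were higher. Over all tested genes this separation was found in 10.6%, and A20KIKO was the higher label in 5.78% and the lower in 4.79%.

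**Figure D1:**
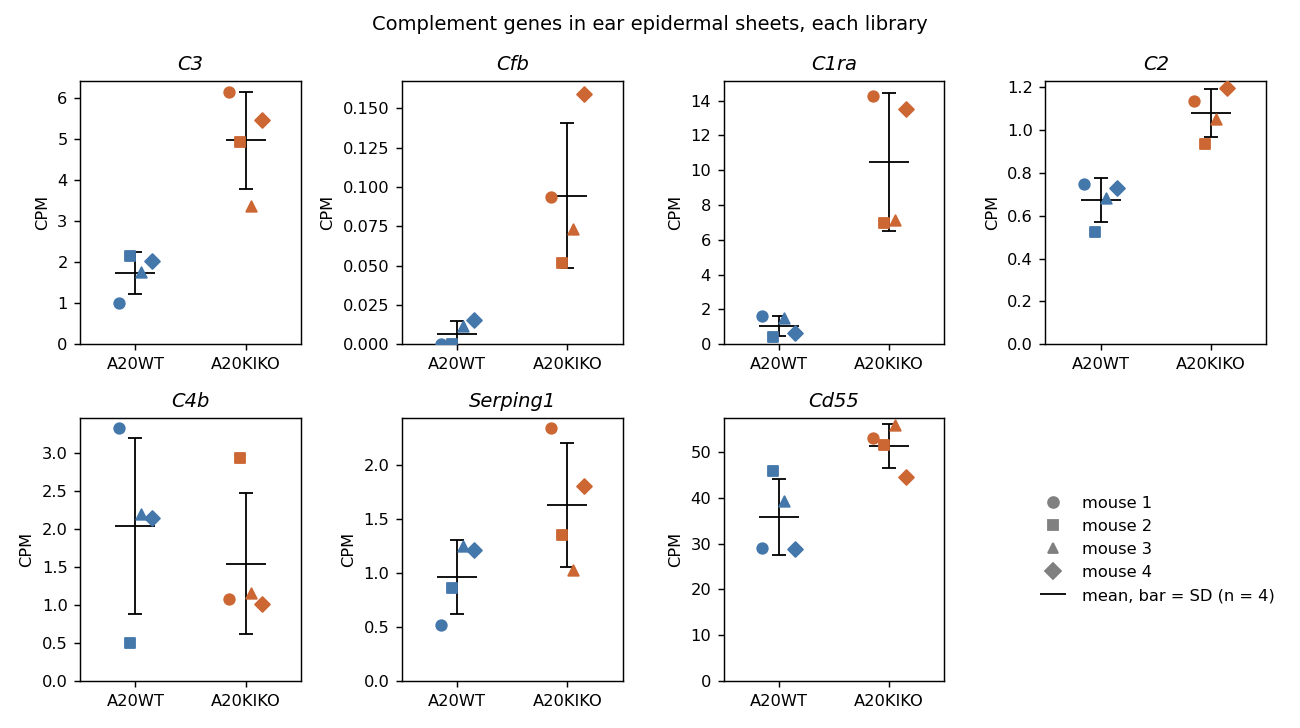
Normalised counts (CPM, vertical axes from 0, a separate scale for each gene) of the 7 complement genes in each library, by label. Points are mice, horizontal bars are means and error bars are SD (n = 4). The groups are apart for C3, Cfb, C1ra and C2 and overlap for C4b, Serping1 and Cd55, with Cfb never above 0.159 CPM.

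C3, the central component that all activation routes cut, was present at a few CPM. C3 (ENSMUSG00000024164, chromosome 17, 57203970 to 57228136 in GRCm38) had 6.14, 4.93, 3.36 and 5.45 CPM in mice 1 to 4 labelled A20KIKO and 1.01, 2.14, 1.76 and 2.03 CPM in mice 1 to 4 labelled A20WT. Every library labelled A20KIKO was above every library labelled A20WT, with A20KIKO mouse 3 the lowest of its group. The means were 4.97 ± 1.18 and 1.74 ± 0.509 CPM (SD, n = 4 each), or 2.87-fold (1.52 ± 0.27 on the log2 scale, SE, edgeR adjusted p = 0.00829). Without A20KIKO mouse 4 the log2 change was 1.48 (adjusted p = 0.0204). Against a null of up to 1.5-fold, C3 missed the threshold (glmTreat adjusted p = 0.0533). No 100-base stretch of its annotated transcripts stands in a transcript of another gene. In bulk tissue, more cells of a kind and more RNA per cell cannot be told apart, here and in the results that follow.

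Cfb, the gene of factor B, the protease of the alternative pathway convertase, was close to the limit of detection. Cfb (ENSMUSG00000090231, chromosome 17, 34856374 to 34862518) had 8, 3, 3 and 14 counts in mice 1 to 4 labelled A20KIKO and 0, 0, 1 and 1 in mice 1 to 4 labelled A20WT. The libraries labelled A20KIKO were all higher, but at 0.0519 to 0.159 CPM. Pooled over the groups, 28 counts stood against 2, a ratio per total count of 14.9 (exact 95% interval 3.77 to 129, counting error only). Counts are not independent fragments here, since in 15 of 16 lane columns more genes held 4 counts than 3, so this interval is too narrow. With the low-count filter removed, edgeR gave Cfb a log2 change of 3.5 (SE 1.23, adjusted p = 0.186) and DESeq2 gave 3.79 (adjusted p = 0.105), and neither passed.

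The annotation may limit what a count of Cfb or C2 covers. In GENCODE M21 the gene Gm20547 runs over both on the same strand, and 2246 of the 2825 exon bases of Cfb (79.5%) also belong to it. Of the 3872 exon bases of C2, 1817 (46.9%) are shared with Gm20547 or with Zbtb12 on the opposite strand. Gm20547 had 0 counts in all 8 libraries. Cfb has 579 exon bases that it shares with no gene. The treatment of reads from shared bases is not given in the sources used here.

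C1ra, the gene of the C1r protease that activates C1s within the C1 complex, had the widest change among the tested members. C1ra (ENSMUSG00000055172, chromosome 6, 124512405 to 124523443) had 14.2, 6.94, 7.13 and 13.5 CPM in mice 1 to 4 labelled A20KIKO and 1.62, 0.432, 1.5 and 0.668 CPM in mice 1 to 4 labelled A20WT. The libraries labelled A20KIKO fell into a higher pair, mice 1 and 4, and a lower pair, mice 2 and 3, all above the other group. The rise from 1.06 ± 0.594 to 10.5 ± 3.96 CPM (SD, n = 4 each) was 9.77-fold (3.29 ± 0.43 on the log2 scale, SE, edgeR adjusted p = 0.00229). It was 3.14 on the log2 scale without A20KIKO mouse 4 (adjusted p = 0.00273), and C1ra also passed against a null of up to 1.5-fold (adjusted p = 0.00642). C1ra has a near-identical copy beside it, C1rb, and 34.5% of the 100-base stretches of its transcripts also stand in C1rb, with 1.46% in Gm18840. The counting could split reads between them, or leave out reads that match both. C1rb had 11 counts over the libraries labelled A20KIKO and 1 over the others. With both summed the log2 change was again 3.29, but a sum cannot recover reads that were left out.

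C2, the protease that joins C4b in the classical convertase, was low in all libraries. C2 (ENSMUSG00000024371, chromosome 17, 34862604 to 34898265) had 1.13, 0.935, 1.05 and 1.20 CPM in mice 1 to 4 labelled A20KIKO and 0.749, 0.523, 0.684 and 0.730 CPM in mice 1 to 4 labelled A20WT. The groups did not overlap, though the gap was small. At 1.08 ± 0.113 against 0.671 ± 0.103 CPM (SD, n = 4 each) the log2 change was 0.68 (SE 0.28), with an unadjusted p = 0.0307 and an edgeR adjusted p = 0.254, and it did not pass. Without A20KIKO mouse 4 the log2 change of C2 was 0.63 (adjusted p = 0.449). On the map 85 bases lie between C2 and Cfb, and with the counts of both summed the log2 change was 0.79 (adjusted p = 0.175).

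C4b, the gene of the fourth component, which binds covalently to surfaces once cut, varied more within the groups than between them. C4b (ENSMUSG00000073418, chromosome 17, 34728380 to 34743882) had 1.08, 2.92, 1.15 and 1.01 CPM in mice 1 to 4 labelled A20KIKO and 3.32, 0.505, 2.19 and 2.14 CPM in mice 1 to 4 labelled A20WT. A20KIKO mouse 2 was high and A20WT mouse 2 low in their groups, which overlapped. The log2 change was -0.41 (SE 0.51, edgeR adjusted p = 0.780), and -0.92 without A20KIKO mouse 2 or -0.08 without A20WT mouse 1 (adjusted p = 0.411 and 0.965). Without A20KIKO mouse 4 it was -0.25 (adjusted p = 0.918). Its neighbour C4a shares 15.2% of the 100-base stretches of C4b, and had 0.148 to 0.554 CPM in the libraries labelled A20KIKO and 0.0901 to 0.452 CPM in the others. With both summed the log2 change was -0.27 (adjusted p = 0.864), a sum that would also miss reads matching both genes if the counting left these out.

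Of the regulators, Serping1 and Cd55 had higher means in the libraries labelled A20KIKO without passing the test. Serping1 encodes the C1 inhibitor, the serpin that stops C1r and C1s. Serping1 (ENSMUSG00000023224, chromosome 2, 84765387 to 84775444) had 2.35, 1.35, 1.03 and 1.81 CPM in mice 1 to 4 labelled A20KIKO and 0.519, 0.865, 1.25 and 1.21 CPM in mice 1 to 4 labelled A20WT. The groups overlapped, since A20KIKO mouse 3 lay below A20WT mice 3 and 4. The log2 change was 0.77 (SE 0.35), with an unadjusted p = 0.0484 and an edgeR adjusted p = 0.318. It was 0.72 without A20KIKO mouse 4 (adjusted p = 0.498).

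Cd55, or decay-accelerating factor, splits the C3 convertases on the cell's own membrane and was the most abundant member. Cd55 (ENSMUSG00000026399, chromosome 1, 130439027 to 130462744) had 53.1, 51.6, 55.9 and 44.7 CPM in mice 1 to 4 labelled A20KIKO and 29.1, 45.9, 39.3 and 28.9 CPM in mice 1 to 4 labelled A20WT. Only A20KIKO mouse 4 and A20WT mouse 2 crossed between the groups. At 51.3 ± 4.77 against 35.8 ± 8.28 CPM (SD, n = 4 each) the log2 change was 0.52 (SE 0.16, unadjusted p = 0.00667, edgeR adjusted p = 0.114). It passed without A20WT mouse 2 (log2 change 0.66, adjusted p = 0.0374) and by DESeq2 (log2 change 0.52, adjusted p = 0.0459), and not without A20KIKO mouse 4 (log2 change 0.58, adjusted p = 0.115). Its copy Cd55b had 0.0245 to 0.148 CPM and 0.0180 to 0.0461 CPM in the same groups, and shares 4.19% of the 100-base stretches of Cd55.

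Levels of different genes were compared per kilobase of exon that no other annotated gene shares. In the libraries labelled A20WT, Cd55 stood at 7.53 ± 1.74 CPM per kb (SD, n = 4), far above the rest. Serping1, C4b, C1ra, C3 and C2 followed with means of 0.414, 0.358, 0.354, 0.338 and 0.327 CPM per kb, and each of these overlapped the next in its range. Cfb came last at 0.0117 ± 0.0138 CPM per kb (SD, n = 4). In the libraries labelled A20KIKO, Cd55 was again highest at 10.8 ± 1.00 CPM per kb, and C1ra was now apart from the others at 3.51 ± 1.33 CPM per kb (SD, n = 4 each). C3, Serping1, C2, C4b and Cfb followed in that order, from 0.967 to 0.163 CPM per kb, each overlapping its neighbour. These levels assume that reads in shared bases were not counted. Over all exon bases, the level of C2 was 0.173 ± 0.0266 CPM per kb in the libraries labelled A20WT, with its range below that of C3, and 0.279 ± 0.0291 in those labelled A20KIKO, with its range below that of Serping1. Cfb was then at 0.0024 ± 0.00283 and 0.0335 ± 0.0164 CPM per kb (SD, n = 4 each), with its range below that of C4b in both groups. The order of the means was the same on either length. The level of C1ra moved from the middle of this order to second, while Cd55 stayed at the top.

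**Figure D2:**
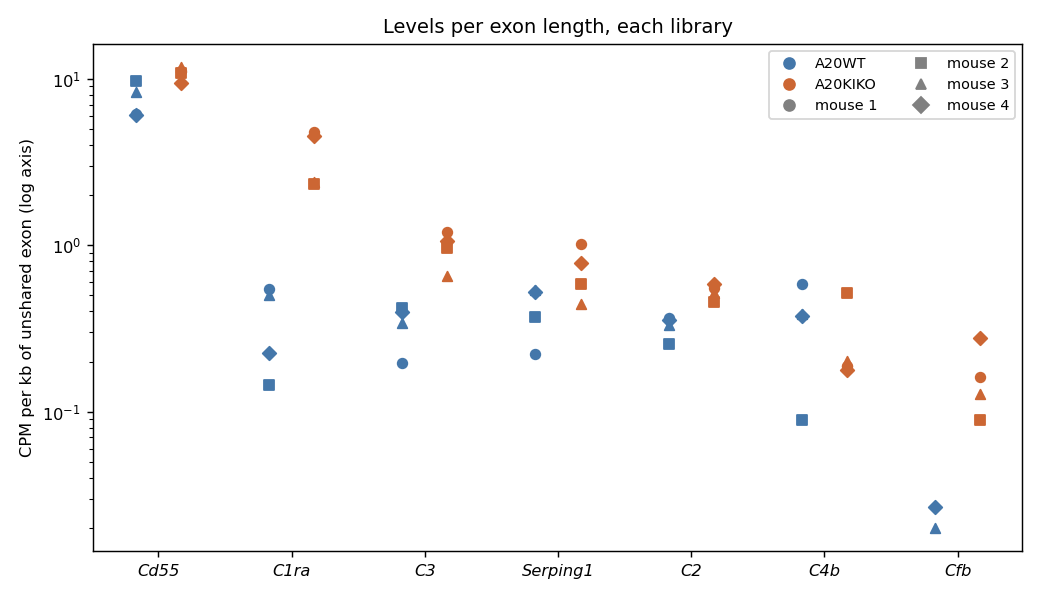
Level of each complement gene per kilobase of unshared exon (CPM per kb, log axis) in each library, with colour for the label and shape for the mouse. The 2 libraries with 0 counts of Cfb are not drawn. C1ra lies among C3, Serping1, C2 and C4b in the libraries labelled A20WT and above them in those labelled A20KIKO.

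Among the libraries, the members did not all vary together. C3 and Serping1 moved alike, with r = 0.86 over the 8 libraries and r = 0.86 between their deviations from the group means (log2 CPM). C3 and C1ra had r = 0.80 over the 8 libraries but r = -0.27 between those deviations. These are descriptions over 8 points that share depth and preparation. Of 10337 genes with at least 5 CPM, those most like C3 over the 8 libraries were Orai2, a subunit of calcium channels (r = 0.99), Rbm28, a nucleolar RNA-binding protein (r = 0.98) and Ikbke, a kinase of innate immune signalling (r = 0.98). Those most like C1ra were Mtap, an enzyme of methionine salvage (r = 0.99), the predicted antisense gene Gm20234, whose reads cannot be told by strand from those of a gene opposite it (r = 0.98), and Prkar1a, a regulatory subunit of protein kinase A (r = 0.98). Orai2 rose 2.20-fold and Ikbke 1.83-fold (edgeR adjusted p = 0.00266 and 0.00292), and Gm20234 rose 70.5-fold from 0.270 ± 0.165 CPM (SD, n = 4, adjusted p = 0.00143). Rbm28, Mtap and Prkar1a did not pass.

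In the wider pathway most of the rises were genes of the classical route. Of 58 listed complement genes 28 were tested, and edgeR called 8 higher and 0 lower, with a median log2 change of 0.66. Of all 16512 tested genes, 2.43% were called higher and 1.06% lower. The list was written with earlier results of these data known, so these counts describe it and test nothing. Of the 51 listed genes that are not members, 22 were tested and 6 rose. Of 11 classical pathway genes 9 were tested and 6 rose: C1qa, C1qb, C1qc, C1ra, C1rl and C1s1. C1s1 encodes the protease that cuts C4 and C2. It had 33.0, 14.1, 22.3 and 29.6 CPM in mice 1 to 4 labelled A20KIKO and 0.749, 1.15, 2.03 and 3.06 CPM in mice 1 to 4 labelled A20WT. Mice 1 and 4 labelled A20KIKO were the highest, as they were for C1ra. C1s1 rose 14.2-fold (3.83 ± 0.47 on the log2 scale, SE, edgeR adjusted p = 0.00273), and 3.73 on the log2 scale without A20KIKO mouse 4 (adjusted p = 0.0037). C1rl, a protease related to C1r, rose 5.10-fold, from 0.363 ± 0.127 to 1.85 ± 0.881 CPM (SD, n = 4 each, adjusted p = 0.00574). Its log2 change of 2.35 was 1.97 without A20KIKO mouse 4 (adjusted p = 0.015).

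C1rl, C1ra and C1s1 lie together on chromosome 6, between 124493113 and 124542359, and all 3 tested genes of this cluster rose. The copies C1rb and C1s2 farther along were not tested, at no more than 0.0519 CPM of C1rb and 0.339 CPM of C1s2 in any library. Of the C1s1 exon bases, 576 of 3129 are shared with the opposite-strand gene Gm16567, which had 0 counts in every library. Of the complement genes of the major histocompatibility complex on chromosome 17, the 3 tested, C4b, C4a and C2, were not called, and Cfb was not tested. The difference between these clusters was not tested.

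The subunits of C1q, the recognition molecule of the classical pathway, rose with C1ra and C1s1. C1qa rose 4.56-fold, C1qb 13.6-fold and C1qc 9.82-fold (edgeR adjusted p = 0.00184, 0.00227 and 0.00272). Without A20KIKO mouse 4 their log2 changes were 2.16, 3.73 and 3.37 (adjusted p = 0.00381, 0.0031 and 0.00452). C1q is made mainly by macrophages and dendritic cells, and the list of monocyte and macrophage markers used here holds the 3 C1q genes. Of 15 listed markers 11 were tested, 5 rose and 0 fell, with none at 0 in all libraries. The median log2 change over those tested was 2.04. Without the C1q genes 8 were tested, 2 rose and 0 fell, and the median log2 change was 0.62. Those that did not pass were Cd68, Adgre1, Csf1r, Cx3cr1, Lyz2 and Ccr2, from 0.18 for Cd68 to 2.63 for Ccr2 on the log2 scale. The risen markers included the 3 C1q genes themselves and Ly6c2, a surface protein of inflammatory monocytes with a close paralog, Ly6c1. Ly6c2 had 3.03, 0.485, 1.47 and 2.62 CPM in mice 1 to 4 labelled A20KIKO and 0.036 to 0.184 CPM in the others, with no overlap (3.81 on the log2 scale, edgeR adjusted p = 0.00334). The part of these cells in the rises of C3, C1ra and C1s1 was not tested.

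Fibroblasts are another source of C1r, C1s and C3, and their part in these rises was not tested. Of 13 fibroblast markers 10 were tested, 0 rose and 1 fell, with a median log2 change of -1.08. The fallen one was Col6a1, a collagen chain (log2 change -1.27, edgeR adjusted p = 0.0168). The tested markers went both ways, from -1.81 for Col3a1 to 0.67 for Fbln1 on the log2 scale, neither of them called. Vim, an intermediate filament gene of many mesenchymal and immune cells, was the highest, and without it the markers summed to 36.6 to 60.6 CPM in the libraries labelled A20KIKO and 57.9 to 83.6 CPM in those labelled A20WT. Hepatocyte markers were near the floor, at 0.608 to 1.35 and 0.288 to 0.568 CPM in sum, with Ahsg the highest and Fgb, Serpina1a and Serpina1b at 0 throughout. Langerhans cell, T cell, endothelial, melanocyte and chondrocyte lists, led by Cd74, Cd3g, Vwf, Pmel and Chad, had 0 called genes, with median log2 changes of 0.17, -0.02, 0.03, 1.25 and -1.65. Melanocyte markers summed to 48.0 to 226 CPM in the libraries labelled A20KIKO and 43.7 to 59.1 CPM in the others.

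**Figure D3:**
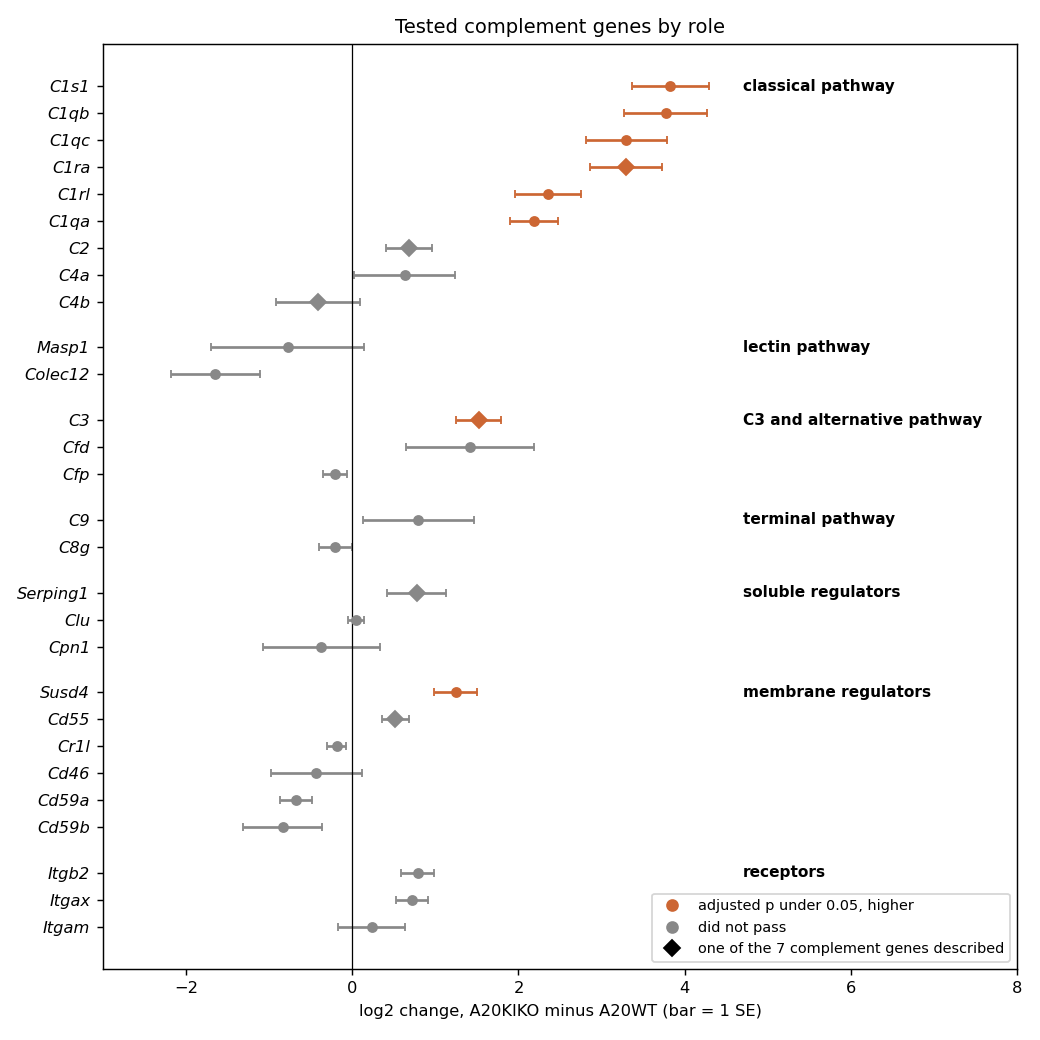
Log2 change (A20KIKO minus A20WT, bar = 1 SE) of the 28 tested complement genes, grouped by role, with diamonds for the members described here and orange for genes with an edgeR adjusted p under 0.05. The 6 risen classical pathway genes lie between 2.19 and 3.83, to the right of C3 at 1.52 and Susd4 at 1.24.

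Outside the classical route, 2 of the tested genes rose, C3 and Susd4. Susd4, a membrane protein with complement control repeats that inhibits convertases in human and mouse studies, rose from 3.29 ± 0.828 to 7.79 ± 2.49 CPM (SD, n = 4 each), or 1.24 ± 0.26 on the log2 scale (SE, edgeR adjusted p = 0.0179). It missed the threshold without A20KIKO mouse 1 or 2 or without A20WT mouse 3 or 4 (adjusted p = 0.0713, 0.0504, 0.0707 and 0.0651), and against a null of up to 1.5-fold (0.157). Without A20KIKO mouse 4 the log2 change of Susd4 was 1.36 (adjusted p = 0.0165). Of 8 membrane regulators 6 were tested and Susd4 was the one called. Cd59a, which blocks the membrane attack complex and is named here after its values were seen, had 27.5 ± 6.11 against 44.1 ± 9.49 CPM (SD, n = 4 each), with no overlap (log2 change -0.68, SE 0.19, adjusted p = 0.082). It passed in 3 of 20 alternatives, with no count filter, by DESeq2 and with the replicate number as a block (adjusted p = 0.0462, 0.0188 and 0.0272).

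Of 4 genes of C3 and the alternative pathway 3 were tested, and C3 was the one that passed. Of 11 soluble regulators 3 were tested and 0 passed. The highest was Clu, or clusterin, a chaperone that also restrains the terminal pathway, at 219 ± 5.36 and 212 ± 17.7 CPM (SD, n = 4 each, log2 change 0.05, edgeR adjusted p = 0.893). Of 9 lectin pathway genes 2 were tested and 0 passed, with Colec12, a scavenger collectin, at 0.461 ± 0.399 and 1.45 ± 0.500 CPM (SD, n = 4 each, log2 change -1.65, adjusted p = 0.139). Its log2 change was -2.35 without A20KIKO mouse 2, where it passed (adjusted p = 0.0246), as it did by DESeq2 (log2 change -1.65, adjusted p = 0.0238). Of 7 terminal pathway genes 2 were tested and 0 passed, and C8g, a lipocalin chain of C8, had 2.39 ± 0.293 and 2.75 ± 0.250 CPM (SD, n = 4 each). Hc, the mouse gene of C5, and C6 had 0 counts in all 8 libraries.

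Of 8 complement receptors 3 were tested and 0 passed. Itgb2, the shared beta chain of the C3-fragment receptors of leukocytes, had 14 ± 4.10 and 8.15 ± 1.15 CPM (SD, n = 4 each, log2 change 0.79, SE 0.20, edgeR adjusted p = 0.0516). It passed in 5 of 20 alternatives: no count filter, DESeq2, thinned counts, the replicate number as a block, and without A20KIKO mouse 2 (adjusted p = 0.0172, 0.00499, 0.0327, 0.0396 and 0.0261). Without A20KIKO mouse 4 its log2 change was 0.57 (adjusted p = 0.131). Itgax, an alpha chain of such receptors that is named after its values were seen, had 5.84 ± 0.968 and 3.56 ± 0.526 CPM (SD, n = 4 each) with no overlap (log2 change 0.72, SE 0.19, adjusted p = 0.0623). Itgax passed in 2 of 20 alternatives, the stricter filter and DESeq2 (adjusted p = 0.0458 and 0.00449). The receptors of the C3a and C5a fragments were too low in too many libraries to be tested and are named after their values were seen. C3ar1 had 1.64, 0.0865, 0.515 and 1.29 CPM in mice 1 to 4 labelled A20KIKO and 0.0115 to 0.124 CPM in the others, so A20KIKO mouse 2 lay within the range of the libraries labelled A20WT. With the filter removed, its edgeR adjusted p = 0.0454, and by DESeq2 0.00015. C3ar1 entered the test when some single libraries were left out, passing without A20KIKO mouse 2 or 3 (edgeR adjusted p = 0.00669 and 0.0493) and not without A20WT mouse 1, 2, 3 or 4 (0.0926, 0.118, 0.0909 and 0.0693). C5ar1 had 7.21 CPM in A20KIKO mouse 4, the library with high neutrophil markers, and 0.049 to 0.234 CPM in A20KIKO mice 1 to 3. The libraries labelled A20WT had 0 to 0.0466 CPM, below all of these, but A20KIKO mice 2 and 3 held only 3 and 2 counts.

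**Figure D4:**
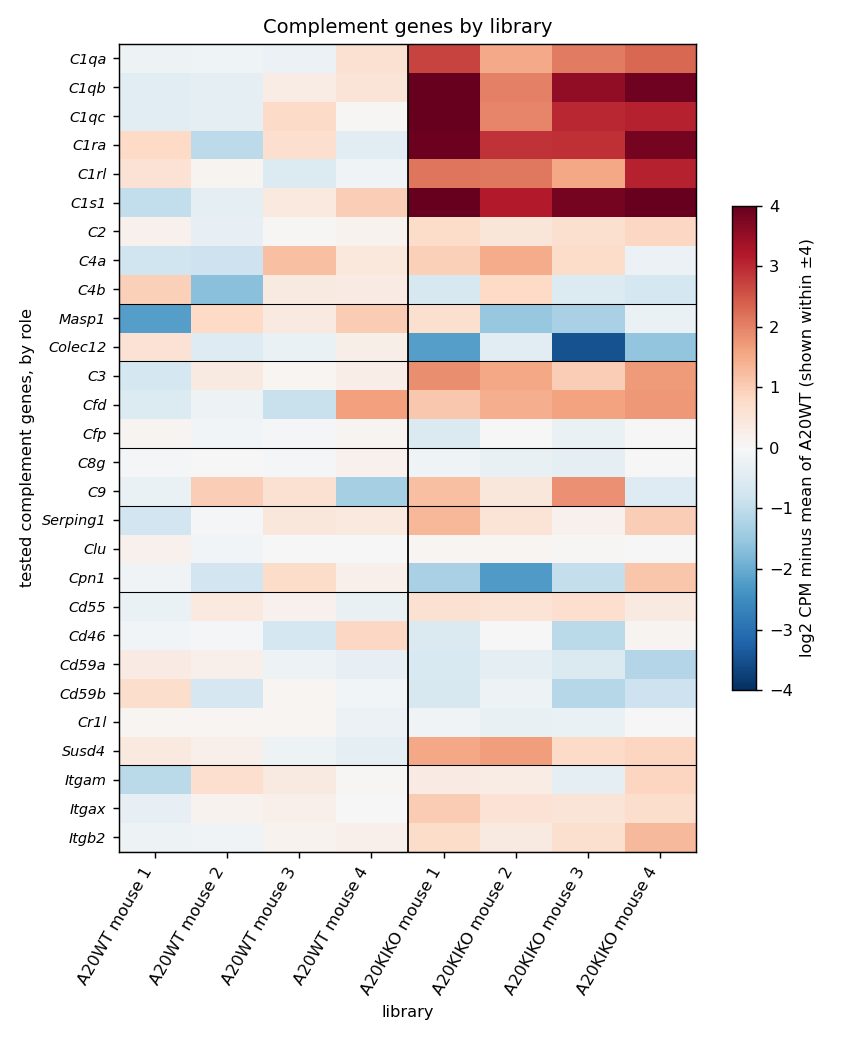
Log2 CPM of the 28 tested complement genes in each library (columns) minus the mean of the libraries labelled A20WT, with red for higher and blue for lower, shown within ±4. The C1q genes, C1ra, C1rl and C1s1 are higher in all 4 libraries labelled A20KIKO, and C4b and Serping1 differ among the mice of each label.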

How the data were processed

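Polyadenylated RNA of 8 epidermal sheets was copied with the SMART-Seq v4 kit and tagmented, per the labels, which keeps neither strand nor molecular identifiers. The authors deposited raw counts per Ensembl gene in 2 lane columns per library. The submitters' processing notes name STAR 2.4.2a, Picard 1.139, HTSeq 0.6.1p1, GRCm38.p5 and GRCh38. No source used here states the counting options. Lanes were summed, and 51633 of 51912 identifiers matched a symbol.

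In R 4.3.3 with edgeR 4.0.16, genes kept by filterByExpr (minimum count 10, total 15) were TMM-scaled and tested with the robust quasi-likelihood fit, group as the only term, two-sided, called at an adjusted p under 0.05. SE is the size of a log2 change over the root of its F statistic. Correlations used log2 CPM with a prior count of 2. Alternatives were other size factors, no filter and a stricter one, DESeq2 1.42.0, limma-voom (3.58.1), other dispersions and thresholds, thinning, a replicate block, summed neighbours and each library left out. The pipeline was tested on simulated data. Tables and plots were made in Python 3.11.15 (pandas 2.3.3, Matplotlib 3.10.9, NumPy 2.4.6). Exon lengths came from GENCODE M21.

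Members, lists, motifs and alternatives were chosen with earlier results of these data known. All members were named. Of the list, called genes and, in a role with none called, the highest tested gene were named, and for each called member the 3 genes with the highest Pearson correlation. Each cell type list is named by its highest gene. The highest gene and the summed level of the monocyte and macrophage list are not reported here.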

Additional observations from a re-analysis of the deposited data

Results flagged for a closer look

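In 4 of 48 groups of 4 libraries, over 24 named genes, 1 library lay far from the rest by the gap to its neighbour. Chance alone marks about 1 in 20 such groups when values are independent and normally distributed. Counts near 0 are not, and the groups share libraries, so that rate is only a rough guide here. C4b had 2.92 CPM in A20KIKO mouse 2, where the other libraries of that label had 1.01 to 1.15 CPM. C1qa had 2.02 CPM in A20WT mouse 4, against 1.12 to 1.17 CPM in the rest of its group, still below every library labelled A20KIKO. C5ar1, the receptor of C5a, had 7.21 CPM in A20KIKO mouse 4, against 0.049 to 0.234 CPM in mice 1 to 3. The libraries labelled A20WT had 0 to 0.0466 CPM. A20KIKO mouse 4 also had the highest neutrophil marker sum and the highest mast cell marker sum, the latter nearly all Hdc. C1rb had 0.0116 CPM in A20WT mouse 3, a single count, and 0 in the other libraries of that label.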

How the results depend on the processing

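C1ra rose in 21 of 21 alternatives (log2 change 3.04 to 3.57) and C3 in 18 of 19 (1.33 to 1.67), the exception being the test against a 1.5-fold change. C2, C4b and Serping1 passed in none, and Cd55 in 2 of 21. The members called numbered 1 with at least 5 CPM required in 4 libraries, which removed C3, 1 against a 1.5-fold change, and 2 to 3 with a library left out. Complement genes called numbered 4 under that stricter filter and 7 to 11 with a library left out, where 8 of 28 is the main value. DESeq2 was run without the count filter, was fitted to 48 listed genes, and called 15 (13 higher, 2 lower). It gave some of the 48 no adjusted p, among them C1rb and C5ar1. Fitted to the same 48, edgeR without the filter called 11 (10 higher, 1 lower). Over all genes, 576 calls became 374 under the stricter filter, 636 by edgeR with no filter and 1170 by DESeq2. The last 2 were fitted to 28371 genes with a count, where the main fit tested 16512, and DESeq2 gave some of these genes no adjusted p. Calls numbered 250 at an adjusted p under 0.01 and 200 against a 1.5-fold change. With a library left out they numbered 348 to 619, lowest without A20KIKO mouse 1 and 355 without A20WT mouse 3. The cause was not tested, except that the stricter filter tests fewer genes and DESeq2 was fitted to more. Itgam, which did not pass, had a log2 change of 0.23 and ranged from -0.0257 without A20WT mouse 1 to 0.47 without A20WT mouse 2. Same-numbered libraries of the groups correlated at r = 0.04, 0.06, -0.01 and 0.24 in their deviations, so the numbers were not taken as pairs. With the replicate number as a block, 551 genes, 2 members and 10 complement genes were called. Summing C2, Cfb and Gm20547, chosen after seeing the data, gave C2 an adjusted p = 0.175. Gm20547 had 0 counts throughout, so this repeats the sum of C2 and Cfb and is no further check. Cfb was limited by its low counts, and whether reads from its shared exon bases were counted is not known.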
